A study of Mus musculus with 141 samples.

Results

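The 6 libraries described here are 2 of the 47 groups of 3 libraries in the series (84 libraries of courses 4 to 6 and 57 of courses 1 to 3): 3 from helper T cells cultured for 6 h with IL6, TGFb, IL1b and IL21, and 3 from naive cells taken at 0 h. They were chosen from the labels as the 6 h time of the 4-cytokine cocktail and the 0 h time of the same courses, which the labels number 4, 5 and 6, and no measured value entered the choice. Both groups began as sorted naive CD4 T cells (CD4+CD25-CD44lo) of C57BL/6 mice, an inbred strain, whose spleens and lymph nodes were the source. The 6 h cells had been stimulated with plate-bound antibodies to CD3 (0.5 µg/ml) and CD28 (5 µg/ml) in medium with 20 ng/ml IL6, 1 ng/ml TGFb, 10 ng/ml IL1b and 20 ng/ml IL21, while the 0 h cells had received neither antibodies nor cytokines. The difference between both groups therefore holds T cell receptor stimulation, culture and all 4 cytokines at once. Other groups of 3 libraries were used to set it in context: 6 h of IL6 and TGFb with IL1b alone, 6 h of IL6 and TGFb with IL21 alone, and 4 h of the same cocktail, all from courses 4 to 6, and 6 h of stimulation without cytokines or with IL6 and TGFb only, from courses 1 to 3, which have a 0 h group of their own. Courses 1 to 3 never received IL1b or IL21 and courses 4 to 6 always received at least 1 of them, so each set's own 0 h was subtracted before the sets were compared.

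A naive T cell is small and metabolically quiet, and stimulation of its receptor together with CD28 turns on growth, surface receptors and cytokine genes within hours. The cytokines present decide which helper fate follows: IL6, acting through the transcription factor STAT3, and TGFb, acting through SMAD proteins, start the Th17 fate. IL21 is another STAT3-activating cytokine that Th17 cells make themselves, and IL1b, which acts through NF-kB, sustains the Th17 program. Mature Th17 cells secrete the cytokines encoded by Il17a and Il17f and protect mucosal surfaces from extracellular bacteria and fungi.

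The 6 libraries held 21.3 to 29.5 M counted reads, within the 16 to 47.1 M of the series, and 1 read was worth 0.0339 to 0.0469 CPM (reads scaled to a fixed library total) in them. Levels are given as TMM-scaled CPM, which do not account for gene length, so they are compared between libraries and not between genes. Each change is a limma log2 fold change ± SE, taken on log2(CPM + 0.5), with the SE pooled over all groups of courses 4 to 6; the added 0.5 understates the change of genes near 1 CPM. A gene was called at a Benjamini-Hochberg adjusted p under 0.05. The naive library of course 6 stands apart for Il17a, with all 62 naive reads of that gene, and results that rest on it are given with and without it. The labels call the 3 libraries of a group biological replicates but do not give which mice or cultures they share. The p-values therefore measure the spread between libraries of a group, pooled over all groups of the fit and not over these 6 libraries alone. Cd3e, a chain of the T cell receptor complex, was read at 242 to 286 CPM at 6 h and at 578 to 686 CPM in naive cells, and all 8 CD4 T cell markers were read in both groups. The summed markers of other cell types were low at 6 h and higher in naive cells: 45.1 to 65.8 against 401 to 536 CPM for 12 B cell markers (of which Ighm alone had 358 to 464 CPM in naive cells), 8.43 to 14.7 against 29.7 to 51.9 for 11 myeloid markers, 6.5 to 8.18 against 15.9 to 21.5 for 9 NK and gamma-delta T cell markers, 4.38 to 4.74 against 14.2 to 21.5 for 2 CD8 markers, and 10.8 to 18.2 against 25.1 to 35 for 10 erythroid and platelet markers. Klrb1c and Tcrg-C1 were listed at 0 at 6 h, and Pf4 and Ppbp were listed at 0 in both groups. In these lists 10 of 12 B cell, 7 of 8 tested myeloid, 3 of 6 tested NK and gamma-delta, 2 of 2 CD8 and 6 of 7 tested erythroid and platelet genes fell, against 38.3% of all genes tested. The NK and gamma-delta count lies near that share, and 1 NK gene, Gzmb, rose. The part of these lists in the results below was not tested. As in any bulk sample, fewer cells of a type and less RNA per cell cannot be told apart.

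After 6 h of the cocktail most of the transcriptome stood apart from naive cells. Of 14859 genes tested, 11188 (75.3%) were called, 5492 higher (37%) and 5696 lower (38.3%), and the 3 libraries of one group did not overlap the 3 of the other for 76.1% of genes. The median gene changed by -0.04. A change of more than 1 on the log2 scale was called for 5470 genes (2567 higher and 2903 lower), of more than 2 for 1909 (750 and 1159) and of more than 4 for 290 (100 and 190), so large falls outnumbered large rises. Because so many genes moved, every count of a gene group below is to be read against these shares.

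Il2, the growth factor that activated T cells make for themselves, had the largest rise among the genes named. It was read at 263, 355 and 291 CPM at 6 h in courses 4, 5 and 6, against 0, 2.95 and 0.46 CPM in naive cells, a log2 fold change of 7.99 ± 0.80 (limma adjusted p = 5.23e-14). Its high-affinity receptor chain Il2ra was at 2230, 2310 and 2420 CPM at 6 h and at 4.26, 28.6 and 27.1 CPM in naive cells (7.21 ± 0.40). Both genes were high in every 6 h library, and the naive library of course 4 was the lowest for both. Sema7a, a membrane-anchored semaphorin, was at 1070, 1130 and 1070 CPM against 2.58, 11.8 and 2.63 CPM (7.79 ± 0.35). Rgs16, which shortens G protein signals from chemokine receptors, was at 556, 479 and 530 CPM against 2.15, 7.04 and 2.34 CPM (7.08 ± 0.26). The naive library of course 5 was the highest of its group for these 2 genes, still far under every 6 h library.

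The other genes with the largest rises came from several processes. They were Srxn1, which repairs oxidised peroxiredoxins (98.8, 99.9 and 110 CPM at 6 h against 0, 0.755 and 0.125 in naive cells; 7.14 ± 0.28), Chst2, a sulfotransferase (7.10 ± 0.28), Bcat1, which starts the breakdown of branched-chain amino acids (6.98 ± 0.31), Pdgfb, a growth factor (6.93 ± 0.33), Smim3 (6.84 ± 0.23), Fam83g (6.76 ± 0.24), Cdkn1a, the cell cycle inhibitor p21 (6.76 ± 0.25), and the chemokine receptor Ccr8 (6.60 ± 0.24). No 6 h library overlapped a naive one for any of them, which the rule that named them required.

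Among the largest falls, 3 were integrin chains, the adhesion receptors with which lymphocytes hold on to vessels and tissues. Itgb3 was at 0.858, 1.2 and 1.07 CPM at 6 h, against 203, 218 and 210 CPM in naive cells (-7.10 ± 0.18). Itgb7 was at 15.4, 12.9 and 14.3 CPM against 984, 971 and 814 CPM (-5.97 ± 0.10), and its partner Itga4, with which it forms the gut-homing integrin, was at 4.61, 5.39 and 7.19 CPM against 358, 445 and 398 CPM (-6.02 ± 0.17). The 3 naive libraries lay close together for each. Rasgrp2, an activator of the small G protein Rap1 that switches integrins on, was at 6.18, 5.85 and 6.32 CPM against 684, 623 and 637 CPM (-6.61 ± 0.14). The remaining genes of this group were Dnah8 (-6.92 ± 0.24), Nsg2 (-6.90 ± 0.13), Fam101b (-6.24 ± 0.26), Pydc4 (-6.22 ± 0.12), Pglyrp2 (-6.15 ± 0.14), Dapl1 (-6.12 ± 0.20), Sepp1, a selenium carrier (-5.99 ± 0.16), and Txnip, a brake on glucose uptake (-5.94 ± 0.22).

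The transcription factors of the Th17 list named below were already higher at 6 h, as was Il21, while Il17a and Il17f were not called. Of 16 Th17 genes, all tested, 10 rose and 0 fell. Rora, a nuclear receptor of the Th17 program, was read at 203, 198 and 205 CPM at 6 h, against 8.74, 11.8 and 10.9 CPM in naive cells (4.22 ± 0.16). It was higher in each 6 h library than in any naive one. Irf4, which with Batf opens Th17 target sites, was at 2600, 2850 and 3000 CPM against 22.9, 45.4 and 25.5 CPM (6.53 ± 0.22). Batf itself was read at 57.7, 67.1 and 62.2 CPM against 25.7, 27.8 and 22.4 CPM, a smaller rise of 1.29 ± 0.16. Maf, which drives Il21 and Il10, was at 310, 227 and 274 CPM against 11.2, 14.8 and 15.5 CPM (4.24 ± 0.23). Ahr, a ligand-activated factor needed for Il22, was at 43.2, 36.3 and 40.2 CPM against 2.36, 3.49 and 3.89 CPM (3.45 ± 0.16). For these regulators, too, the groups did not overlap in any library.

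Among the cytokine and receptor genes of the Th17 list the picture was uneven. Il21 was read at 210, 181 and 211 CPM at 6 h, against 0.573, 2.26 and 3.68 CPM in naive cells (6.44 ± 0.28, limma adjusted p = 1.16e-30). Il1r1, the signalling receptor for IL1b, was at 4.93, 3.15 and 3.31 CPM against 0.143, 0.431 and 0.627 CPM (2.27 ± 0.24). Il22, which acts on epithelia, had 54 reads at 6 h against 2 in naive cells, a ratio of 25.9 (95% interval from counting error 6.84 to 220). Il10, an anti-inflammatory cytokine, was at 0.643, 0.617 and 0.661 CPM against 0, 0.0719 and 0.251 CPM (0.93 ± 0.34, limma adjusted p = 0.011), and without course 4 its change was 0.80 with a limma adjusted p of 0.0781. These low levels stand on few reads per library.

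Il17a and Il17f did not pass the test. Il17a was read at 0.893, 0.78 and 0.909 CPM at 6 h, against 0, 0 and 2.59 CPM in naive cells (0.57 ± 0.44, limma adjusted p = 0.237). Il17f was at 4.4, 4.84 and 7.65 CPM against 0.788, 0.719 and 10.4 CPM (1.21 ± 0.64, limma adjusted p = 0.0803). For both genes the naive library of course 6 was the highest of the 6 libraries and the other naive libraries were the lowest, so the groups overlapped through that library alone. Without it, an alternative chosen after seeing the data, limma called both: Il17a was higher at 6 h by 1.44 (limma adjusted p = 0.00198) and Il17f by 2.25 (limma adjusted p = 0.00181). The same naive library held the highest naive level of Il23r, Ccl20, Il24 and Il21. The receptor gene Il23r (0.107, 0.162 and 0.0827 CPM against 0, 0 and 0.544), the chemokine gene Ccl20 (0.143, 0.195 and 0.289 against 0, 0 and 0.334), its receptor Ccr6 (0.393, 0.52 and 0.744 against 0.251, 0.503 and 0.711) and Il24 (listed at 0 at 6 h, against 0, 0 and 0.251) were not called.

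**Figure D1:**
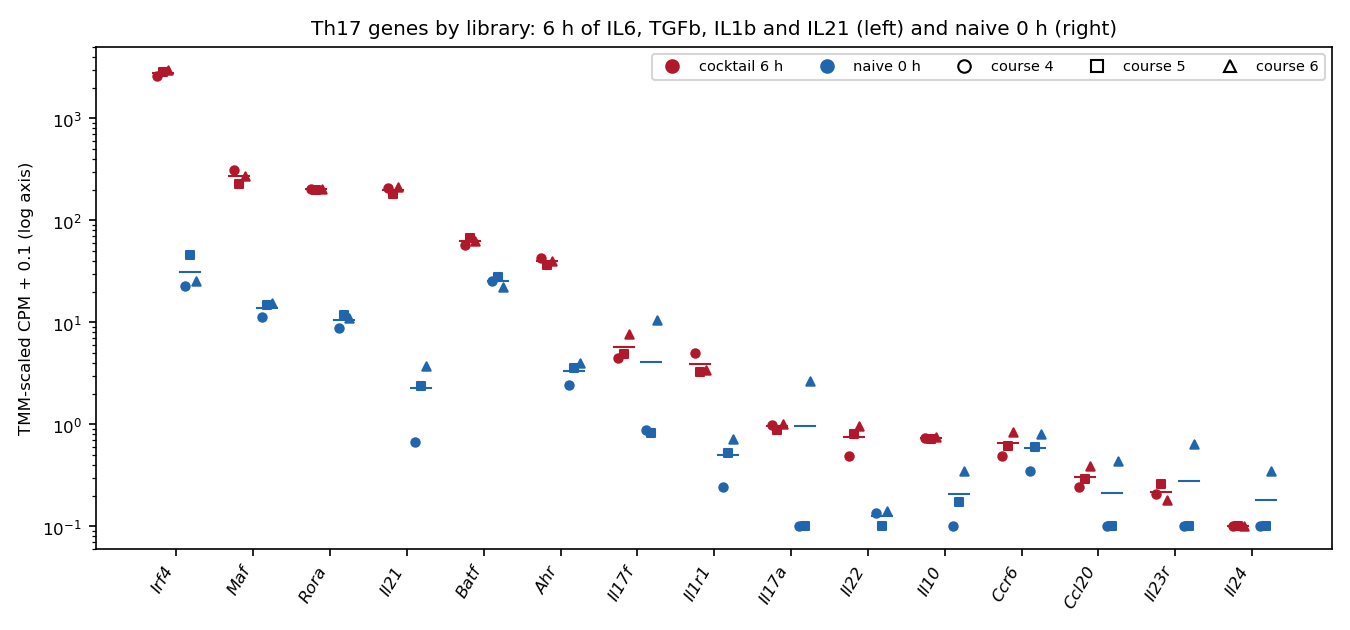
TMM-scaled CPM + 0.1 on a log axis for 15 of the 16 Th17 genes, in each library of the cocktail at 6 h (red, left) and of naive cells at 0 h (blue, right); bars are group means and symbols mark the course, and a gene listed at 0 sits at 0.1. Irf4, Maf, Rora, Il21, Batf, Ahr and Il1r1 are separated in every library, while for Il17f and Il17a the naive library of course 6 (10.4 and 2.59 CPM) lies above the cocktail libraries.

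IL6 signals through Il6ra and Il6st to STAT3, which raises its own inhibitor Socs3. Of 16 genes of this response 11 rose and 2 fell at 6 h, with a list median of 0.86. The fallen pair was Il6ra, at 46.3, 43.1 and 50.8 CPM at 6 h against 479, 518 and 474 CPM in naive cells (-3.38 ± 0.09), and Socs3, at 58.2, 51.1 and 62.9 CPM against 247, 239 and 200 CPM (-1.98 ± 0.21). The shared receptor chain Il6st was at 484, 576 and 510 CPM against 369, 395 and 363 CPM (0.48 ± 0.17). Socs1, a second inhibitor of cytokine signals, rose by 1.96 ± 0.16, and Hif1a, the oxygen-sensitive factor that supports Th17 cells, by 2.96 ± 0.10. Stat3 itself was at 455, 499 and 506 CPM against 436, 451 and 383 CPM and was not called (0.20 ± 0.14), nor were Il4ra and Prdm1.

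The promoter of Socs3 is a known STAT3 target, so the 250 bases before its start are shown with the 1 match to TTCNNNGAA, the palindrome that STAT factors bind, in capitals. The sequence is from RefSeq (GRCm38.p6, chr11:117969367-117969616, minus strand, 5′ to 3′), and the match lies 146 to 154 bases before the start.
Socs3: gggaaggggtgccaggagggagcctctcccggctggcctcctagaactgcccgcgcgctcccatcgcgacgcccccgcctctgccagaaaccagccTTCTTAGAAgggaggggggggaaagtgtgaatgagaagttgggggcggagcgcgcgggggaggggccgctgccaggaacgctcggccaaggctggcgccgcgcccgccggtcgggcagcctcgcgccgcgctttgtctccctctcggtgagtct
On either strand this motif was found in 2 of the 15 genes of the IL6 list with a promoter in the table (Socs3 and Bcl6, 13.3%), in 1 of 11 of the Th17 list (Ccr6, 9.09%) and in 1940 of all 27025 promoters (7.18%). A match is a description of letters, not evidence of binding.

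Genes of the TGFb pathway split between rises and falls: 9 of 20 rose and 7 fell, with a median of -0.04. Pmepa1, a SMAD target that feeds back on the pathway, was read at 280, 242 and 246 CPM at 6 h, against 14.3, 17.1 and 12 CPM in naive cells (4.11 ± 0.18). The receptor genes moved in opposite directions: Tgfbr1 was at 236, 238 and 257 CPM against 37.6, 40.4 and 40.4 CPM (2.61 ± 0.23), while Tgfbr2 was at 167, 146 and 174 CPM against 597, 611 and 504 CPM (-1.81 ± 0.12) and the co-receptor Tgfbr3 at 8.93, 7.15 and 11.2 CPM against 135, 168 and 144 CPM (-3.98 ± 0.15). Among the signal carriers Smad2 (0.62 ± 0.07) and Smad3 (1.11 ± 0.08) rose and Smad4 (-1.20 ± 0.09) and the inhibitory Smad7 (-1.31 ± 0.18) fell.

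In the NF-kB and IL-1 list 15 of 22 genes rose and 4 fell, with a median of 0.96. All 5 subunit genes rose: Nfkb1 was read at 2140, 2340 and 2200 CPM at 6 h against 356, 376 and 307 CPM in naive cells (2.69 ± 0.11), Nfkb2 rose by 2.41 ± 0.14, Rel by 2.19 ± 0.19, Relb by 2.03 ± 0.13 and Rela by 0.87 ± 0.08. The 4 that fell were Tnfaip3, the inhibitor A20, at 99.8, 125 and 118 CPM against 750, 349 and 520 CPM (-2.17 ± 0.24), Irak3 (-2.04 ± 0.18), Nfkbiz (-0.66 ± 0.17) and Irak1 (-0.23 ± 0.06). Both parts of the IL1b receptor rose, Il1r1 as given above and Il1rap by 0.62 ± 0.09.

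Surface molecules of activated T cells rose nearly as a block, 18 of 20 with 0 falls and a median of 2.48. Besides Il2ra the largest was Pdcd1, the inhibitory receptor PD-1, at 339, 298 and 303 CPM at 6 h against 4.05, 9.38 and 4.26 CPM in naive cells (5.71 ± 0.24). Tigit, another inhibitory receptor, was at 50.2, 30.8 and 45.8 CPM against 1.25, 1.58 and 1.13 CPM (4.53 ± 0.31), and the costimulatory receptor Tnfrsf9 was at 235, 219 and 247 CPM against 8.45, 12.8 and 8.49 CPM (4.52 ± 0.31). The 2 that were not called were Cd40lg (0.57 ± 0.36) and Cd28, the receptor that the plate-bound antibody engages (0.02 ± 0.14).

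Of 26 cytokine genes tested (Il5, the 27th, was too low), 14 rose and 3 fell, with a median of 0.91, or 1.02 with the genes that had 0 reads in a group at their bound. Beside Il2 and Il21 the largest rises were of members of the TNF family and of Lif: Tnfsf14 was read at 56.6, 67.9 and 51.8 CPM at 6 h against 1.11, 2.26 and 1.34 CPM in naive cells (4.87 ± 0.25), Lif at 77.7, 86.3 and 71.9 CPM against 1.86, 2.26 and 4.52 CPM (4.62 ± 0.36), and Tnf rose by 3.51 ± 0.16. Il3, a growth factor for blood cells, had 126 reads at 6 h and 0 in naive cells, at least 12.6-fold higher against a floor of 3 reads per library, and Il13 at least 2.89-fold higher. Osm (-1.31 ± 0.16), Ltb (-1.17 ± 0.15) and Tgfb3 (-0.79 ± 0.28) fell.

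Receptors for cytokines went both ways, 10 of 24 tested higher and 11 lower. With Il2ra rose Il2rb (286, 255 and 284 CPM at 6 h against 22.6, 33.5 and 27.7 CPM in naive cells; 3.29 ± 0.10), whose chains form the IL-2 receptor with Il2rg. Il7r, the receptor for the survival cytokine of naive cells, was at 10.4, 10.1 and 12.5 CPM against 368, 461 and 365 CPM (-5.11 ± 0.18). Il18r1 was at 1.36, 1.69 and 1.86 CPM against 61, 74.2 and 69.7 CPM (-5.01 ± 0.20). All 4 interferon receptor genes fell, by 2.93 ± 0.22 for Ifngr1, 2.82 ± 0.17 for Ifngr2, 2.23 ± 0.09 for Ifnar1 and 2.05 ± 0.10 for Ifnar2 on the log2 scale. Il21r, which binds the IL21 in the medium, rose by 0.30 ± 0.10.

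Among 16 genes tested of the list of chemokines and receptors of cell migration, 8 rose and 3 fell. Ccl4, an inflammatory chemokine, was read at 78.2, 76.6 and 70.4 CPM at 6 h against 0.215, 0.683 and 0.0836 CPM in naive cells (6.58 ± 0.29). Ccr8 was at 202, 182 and 174 CPM against 0.895, 3.27 and 0.836 CPM. S1pr1, which is not a chemokine receptor but lets lymphocytes leave lymph nodes, was at 14, 10.6 and 19.6 CPM against 498, 510 and 411 CPM (-4.99 ± 0.27). The chemokine receptor genes Cxcr4 (-2.26 ± 0.38) and Ccr9, of gut homing (-2.40 ± 0.17), fell too. Ccr7, the lymph node homing receptor, was at 287, 293 and 355 CPM against 429, 423 and 357 CPM and was not called (-0.37 ± 0.21). With only the libraries compared, with and without the course block, Ccr7 was called lower.

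Immediate early genes, transcription factors that receptor signals switch on within minutes, stood on both sides of the naive level at 6 h: 10 of 18 were higher and 7 lower. Fos was read at 15.5, 14.8 and 18.8 CPM at 6 h against 712, 630 and 618 CPM in naive cells (-5.28 ± 0.23), and Fosb (-4.50 ± 0.24) and Jun (-4.49 ± 0.27) were lower as well. Fosl1, a Fos relative, was instead at 95.1, 87 and 80.2 CPM against 1, 2.19 and 1.51 CPM (5.45 ± 0.16). Factors of the calcium and NFAT arm were also higher, Egr2 by 4.21 ± 0.20 and Nr4a3 by 3.76 ± 0.29. Inhibitors of receptor signalling showed the same division, 12 of 18 higher and 6 lower: Spry1, an inhibitor of the Ras pathway, was at 460, 416 and 412 CPM against 4.44, 8.19 and 3.97 CPM (6.22 ± 0.24), the MAP kinase phosphatase Dusp4 rose by 4.92 ± 0.17, and Dgka, which removes the second messenger diacylglycerol, was at 92.8, 82.6 and 108 CPM against 1950, 1980 and 1890 CPM (-4.36 ± 0.15).

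Genes that keep naive cells quiet and circulating fell: 20 of 24 were lower and 3 higher, with a median of -2.76. Klf2, the factor that drives S1pr1, was read at 32.5, 25.6 and 32.7 CPM at 6 h against 675, 364 and 499 CPM in naive cells (-4.02 ± 0.36). Txnip was at 15.9, 11.7 and 21.1 CPM against 1070, 926 and 1020 CPM. The 3 that rose were Bach2 (1.53 ± 0.09), Slfn2 (1.33 ± 0.12) and Foxp1 (0.69 ± 0.07), each of which is itself known to hold T cells quiescent. Of the 8 CD4 T cell markers 6 fell and Cd5 rose. Cd4 was at 121, 119 and 128 CPM against 1010, 1120 and 915 CPM (-3.04 ± 0.09), and the 8 summed to 2390 to 2590 CPM against 4060 to 4850 CPM.

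Genes of cell growth moved the other way. Myc, the factor that drives growth in stimulated T cells, was read at 704, 791 and 761 CPM at 6 h against 153, 127 and 122 CPM in naive cells (2.49 ± 0.11). In the network of its partners and antagonists, 10 of 12 genes were tested (Mycn was too low and Mycl1 had no row), of which 3 rose and 4 fell (2 and 2 without course 5). The MYC antagonist Mxd4 was at 3.43, 2.63 and 4.09 CPM against 113, 122 and 113 CPM (-4.92 ± 0.20).

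All 30 ribosome biogenesis genes rose, between 1.24 ± 0.09 (Polr1a, a subunit of RNA polymerase I) and 2.89 ± 0.11 (Nop16), with a median of 2.25. Ncl, the nucleolar protein nucleolin, was read at 4640, 4610 and 5110 CPM at 6 h against 643, 769 and 622 CPM in naive cells (2.82 ± 0.10). Nop56, a core protein of the particles that methylate ribosomal RNA, was at 528, 564 and 549 CPM against 172, 166 and 153 CPM (1.74 ± 0.08). The count was 30 of 30 under each alternative as well.

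Supply of building blocks rose alongside. Of 23 genes for serine, one-carbon and nucleotide synthesis 20 rose and 2 fell, with a median of 1.80. Shmt1, which takes a one-carbon unit from serine, was read at 218, 241 and 235 CPM at 6 h against 14.1, 14.9 and 12 CPM in naive cells (4.04 ± 0.14), and Psat1, in the serine pathway, rose by 3.44 ± 0.13 and Ctps, which makes CTP, by 3.12 ± 0.10. Rrm2, which was among those that fell (-0.91 ± 0.23), and Tyms, which was not called (0.14 ± 0.14), provide deoxynucleotides for DNA replication. Amino acid transporters rose in 9 of 11 cases (median 2.44): the cystine carrier Slc7a11 was at 96.4, 106 and 112 CPM against 1.47, 2.77 and 2.34 CPM (5.32 ± 0.27), and Slc43a2 (-2.39 ± 0.15) and Slc38a2 (-0.28 ± 0.09) fell. Of 20 cytosolic tRNA synthetases 19 rose, by up to 2.05 ± 0.11 (Iars), and the exception Qars was at 135, 125 and 129 CPM against 150, 149 and 132 CPM (-0.15 ± 0.06); its fall was lost without course 4 and without course 5.

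The CACGTG box that MYC binds was found on either strand in the 250 bases before the start of 1 of 25 ribosome biogenesis genes with a RefSeq promoter (Nop2, 4%) and of 4 of 21 serine and nucleotide genes (Atic, Impdh2, Paics and Tyms, 19%), against 1634 of all 27025 promoters (6.05%). For the AP-1 motif TGANTCA the numbers were 4 of 23 cytokine genes (Il17a, Il9, Lif and Tnfsf14, 17.4%) and 0 of 14 immediate early genes, against 1856 of all promoters (6.87%).

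Of 16 genes of the amino acid stress and unfolded protein responses 12 rose and 2 fell (median 1.71). Asns, which makes asparagine, was read at 17.8, 19.4 and 19.8 CPM at 6 h against 0.358, 0.827 and 0.585 CPM in naive cells (4.18 ± 0.21), and Sesn2 rose by 3.38 ± 0.21. The chaperone gene Hspa5 rose by 1.74 ± 0.12, while Herpud1 (-0.59 ± 0.12) and Dnajb9 (-0.45 ± 0.15) fell. Among 12 heat shock genes 6 rose, led by the mitochondrial chaperone Hspd1 (2.55 ± 0.15), and 3 fell. The near-identical pair Hspa1a and Hspa1b, whose reads cannot be divided with certainty, had the largest falls and spread: Hspa1b was at 46.8, 32.7 and 8.93 CPM against 407, 856 and 599 CPM (-4.60 ± 0.72).

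Glycolysis and hypoxia genes rose in 17 of 22 cases and fell in 3 (median 1.70). Hk2, which traps glucose in the cell, was read at 113, 129 and 123 CPM at 6 h against 0.537, 2.08 and 2.43 CPM in naive cells (5.94 ± 0.25). Egln3, an oxygen sensor, was at 78, 81 and 81.2 CPM against 2.08, 2.37 and 5.27 CPM (4.53 ± 0.16), and the lactate exporter Slc16a1 rose by 3.30 ± 0.13. Pdk1, which holds pyruvate out of mitochondria, was at 50.1, 47.2 and 55.2 CPM against 369, 355 and 344 CPM (-2.80 ± 0.10), and Aldoc (-1.76 ± 0.16) and the glucose carrier Slc2a3 (-1.30 ± 0.10) fell too. In cholesterol synthesis 12 of 17 rose, led by Cyp51 (2.64 ± 0.12) and Idi1 (2.54 ± 0.12), and Mvd (-1.89 ± 0.14), Dhcr7 (-1.73 ± 0.14) and Mvk (-0.85 ± 0.12) fell.

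Cell cycle genes were split. Of 24 genes of G1 and S phase 12 rose and 9 fell. Cdk6, a kinase of early G1, was read at 459, 500 and 479 CPM at 6 h against 24, 31.7 and 31.4 CPM in naive cells (4.03 ± 0.11). Cdkn1a, which encodes an inhibitor of such kinases, was at 334, 303 and 305 CPM against 0.788, 3.56 and 4.18 CPM. E2f2 was at 0.75, 0.78 and 0.744 CPM against 28.1, 28.8 and 26 CPM (-4.48 ± 0.17), and Ccnd3, a D-type cyclin, fell by 2.63 ± 0.11 on the log2 scale. Of 18 genes of S, G2 and M phase, 4 rose and 8 fell (1 and 5 without course 4, 3 and 5 without course 5). Mki67, a marker of cycling cells, was at 2.36, 3.12 and 2.44 CPM against 8.81, 10.7 and 14.4 CPM (-1.89 ± 0.27).

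Among 15 genes of survival and death 8 rose and 4 fell. The survival gene Bcl2l1 was read at 213, 231 and 216 CPM at 6 h against 16.4, 19.4 and 14.2 CPM in naive cells (3.70 ± 0.18), and its relatives Bcl2a1b (3.45 ± 0.19) and Bcl2a1d (3.42 ± 0.20), near-identical to each other so that they may share reads, rose with it. The death gene Bax rose as well, by 2.25 ± 0.11, while Bcl2 fell by 0.83 ± 0.11. Tet1, an enzyme that oxidises methylated cytosine, was at 1.43, 1.07 and 0.744 CPM against 48.3, 51.7 and 48.8 CPM (-5.01 ± 0.20). The DNA methyltransferase genes Dnmt3a (1.59 ± 0.12) and Dnmt3b (1.54 ± 0.11) rose and Dnmt1 (-1.16 ± 0.06) fell. Of 10 regulators of mRNA decay 3 rose and 4 fell; Zc3h12d, a ribonuclease of the Regnase family, rose by 2.47 ± 0.11 and the RNA-binding proteins Zfp36l2 and Zfp36 fell by 2.10 ± 0.14 and 1.84 ± 0.14 on the log2 scale.

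**Figure D2:**
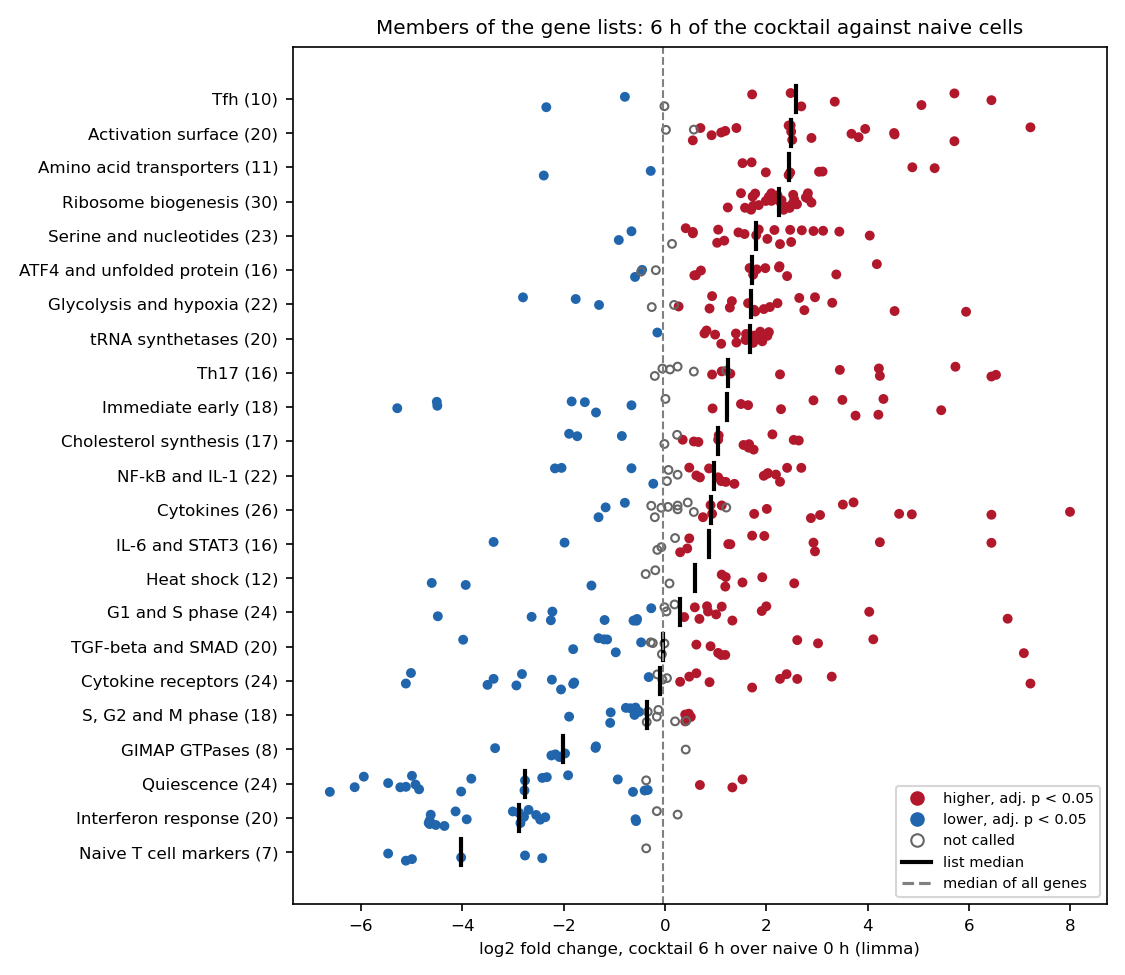
Log2 fold change, cocktail at 6 h over naive at 0 h (limma), of each member of 23 gene lists, with the number tested in brackets; red points were called higher, blue points lower and open points not called, black bars mark list medians and the dashed line the median of all genes (-0.04). All 30 ribosome biogenesis genes lie right of 0, and 18 of 20 interferon genes were called lower with a median of -2.87.

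Interferon-stimulated genes, the antiviral set that STAT2 and IRF9 maintain even in resting lymphocytes, fell in 18 of 20 cases with 0 rises and a median of -2.87. Ifit1, which binds viral RNA, was read at 0.465, 0.975 and 0.992 CPM at 6 h against 25.7, 53.1 and 24 CPM in naive cells (-4.66 ± 0.34). Irf7, which amplifies the response, was at 2.93, 4.35 and 4.09 CPM against 96.4, 134 and 91.1 CPM (-4.64 ± 0.21). Isg15, a ubiquitin-like protein, was at 3.14, 4.22 and 3.43 CPM against 16.9, 31.8 and 15.7 CPM (-2.36 ± 0.32). In all 3 the naive library of course 5 was the highest of its group, and every 6 h library lay under every naive one. The signalling genes Stat2 (-2.69 ± 0.14) and Irf9 (-2.46 ± 0.10) fell as well.

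A pair of interferon genes did not follow. The guanylate-binding protein gene Gbp5 was read at 22, 29.5 and 32.2 CPM at 6 h against 22.2, 26.4 and 20.8 CPM in naive cells (0.25 ± 0.22, limma adjusted p = 0.297), and Bst2, which tethers virus particles, was at 53.2, 45.6 and 50.2 CPM against 58.9, 65.7 and 44.4 CPM (-0.16 ± 0.12). Gbp2, a relative of Gbp5, fell less than most, at 44, 40.9 and 69.9 CPM against 81.8, 89.3 and 56.7 CPM (-0.57 ± 0.25, limma adjusted p = 0.036). The groups overlapped for all 3. For Bst2 they overlapped through the naive library of course 6 alone. Without that library, or without course 6, 19 of the 20 interferon genes were called lower.

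Promoters of 2 members that fell and of 1 that did not are shown because this list moved together and shares a known element. The 250 bases before each start come from RefSeq (GRCm38.p6; Ifit1 chr19:34640639-34640888, plus strand; Isg15 chr4:156200819-156201068, minus strand; Gbp5 chr3:142496684-142496933, plus strand), read 5′ to 3′ along the gene. Capitals mark GAAA repeated after any 2 bases, the core of the interferon-stimulated response element, or its reverse complement, with 2 matches in Ifit1, 3 overlapping ones in Isg15 and 1 in Gbp5.
Ifit1: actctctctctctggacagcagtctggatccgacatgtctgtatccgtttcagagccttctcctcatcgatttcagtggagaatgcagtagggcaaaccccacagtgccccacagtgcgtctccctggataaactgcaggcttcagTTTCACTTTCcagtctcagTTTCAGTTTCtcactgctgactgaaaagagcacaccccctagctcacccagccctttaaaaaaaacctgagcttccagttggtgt
Isg15: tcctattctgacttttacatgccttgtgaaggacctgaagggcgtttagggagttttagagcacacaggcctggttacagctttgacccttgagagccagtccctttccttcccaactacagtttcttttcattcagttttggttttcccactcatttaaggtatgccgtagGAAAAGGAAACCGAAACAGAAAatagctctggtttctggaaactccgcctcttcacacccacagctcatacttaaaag
Gbp5: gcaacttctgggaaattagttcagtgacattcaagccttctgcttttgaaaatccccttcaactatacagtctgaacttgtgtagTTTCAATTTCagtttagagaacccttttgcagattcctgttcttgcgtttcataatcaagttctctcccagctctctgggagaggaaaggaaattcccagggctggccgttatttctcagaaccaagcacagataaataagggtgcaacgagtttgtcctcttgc
The element lies 76 to 104 bases before the start in Ifit1, 57 to 78 in Isg15 and 156 to 165 in Gbp5. It was found in 9 of the 16 list genes with a promoter in the table (56.2%; Bst2, Gbp2, Gbp5, Ifit1, Ifit3, Isg15, Oas1a, Rsad2 and Stat2), against 821 of all 27025 promoters (3.04%). Genes with it were thus among those that fell and those that did not.

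The GIMAP genes, which encode GTPases of resting lymphocytes, fell in 7 of 8 cases (median -2.02). Gimap7 had the largest change (-3.35 ± 0.27), and Gimap4 was read at 162, 165 and 201 CPM at 6 h against 701, 767 and 603 CPM in naive cells (-1.97 ± 0.12). Gimap5 alone was not called, at 91.3, 83.5 and 87 CPM against 68.2, 66.4 and 61.8 CPM (0.41 ± 0.20, limma adjusted p = 0.0605). Its groups did not overlap. Gimap5 was called higher with only the libraries compared, with and without the course block, and without course 4 or course 5.

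In the lists of other helper fates genes moved in both directions. Of 9 Th1 genes 4 rose and 4 fell: the Th1 regulator Tbx21 was read at 32.5, 39.5 and 36.3 CPM at 6 h against 0.609, 1.55 and 0.836 CPM in naive cells (4.66 ± 0.43) and Cxcr3 rose by 4.77 ± 0.32, whereas Stat4, which carries the IL-12 signal, fell by 3.82 ± 0.26. Among 6 tested Th2 genes 3 rose and 1 fell, with a median of 0.50, or 0.89 with Il13 at its bound. The fallen gene was Gata3, the Th2 regulator, at 12.6, 10.8 and 11.2 CPM against 72.8, 64.4 and 58.1 CPM (-2.45 ± 0.16), and Ccr8 and Ccr4 (3.79 ± 0.19) rose. Of 9 Treg genes 6 rose and 1 fell. Foxp3, the Treg regulator, was at 5.5, 6.17 and 6.41 CPM against 7.56, 8.34 and 8.82 CPM and was not called (-0.42 ± 0.66). Every 6 h library of Foxp3 lay under every naive one, and groups did not overlap for 76.1% of all genes. With only the libraries compared, with and without the course block, 2 of the 9 Treg genes were called lower. Of 10 genes of follicular helper T cells 7 rose and 2 fell (median 2.58): Tox2 was at 77.9, 66.7 and 67.4 CPM against 1.4, 2.19 and 1.38 CPM (5.06 ± 0.19), Bcl6 rose by 1.72 ± 0.15 and Cxcr5 by 3.35 ± 0.37, and Sh2d1a (-2.34 ± 0.30) and Tox (-0.79 ± 0.15) fell. These lists share members with one another, Il2ra, Il21 and Ccr8 among them.

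The 6 h time was then set against 4 h of the same cocktail. This and the comparisons below use the same 3 libraries of the cocktail at 6 h as the comparison with naive cells. Of 14859 genes 5544 (37.3%) were called, 2982 higher (20.1%) and 2562 lower (17.2%); without course 6 the count was 3599. The split depended on scaling: higher genes made up 53.8% of calls with TMM scaling and 73.3% without it, when the median of all genes stood at 0.1. The 3 libraries of 6 h did not overlap the 3 of 4 h for 49.1% of genes. Of the immediate early list 15 of 18 were lower at 6 than at 4 h and 1, Fosl1, was higher (0.44); Nr4a1 fell by 2.20 and Egr1 was at 527, 426 and 473 CPM against 895, 804 and 815 CPM (-0.82 ± 0.17). In the IL6 list 14 of 16 were lower and 0 higher, in the NF-kB list 17 of 22 lower and 1 higher, and in the interferon list 16 of 20 lower and 0 higher. Socs3 was at 58.2, 51.1 and 62.9 CPM at 6 h against 138, 162 and 151 CPM at 4 h (-1.38 ± 0.21). Of the 16 Th17 genes 1 was higher (Rora, 0.66) and 1 lower (Batf, -0.78).

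The largest rises between 4 and 6 h were of genes with different roles. Gtse1, a microtubule-binding protein of dividing cells, was read at 38.6, 29.1 and 31.5 CPM at 6 h against 4.25, 2.99 and 3.27 CPM at 4 h (3.07 ± 0.15), Phlda3 at 72.3, 54.5 and 58.8 CPM against 8.21, 8.2 and 6.5 CPM (2.93 ± 0.28), and Psrc1 at 41.3, 35.6 and 32.1 CPM against 7.33, 5.71 and 6.12 CPM (2.42 ± 0.18). The potassium channel gene Kcnq5 (2.85 ± 0.20) and Gcdh, which breaks down lysine (2.24 ± 0.15), completed the 5 largest rises. In the cholesterol list 12 of 17 were higher and 0 lower. The largest falls were those of the lipase Lipg (3.93, 4.06 and 4.42 CPM against 57.9, 75.9 and 60.4 CPM; -3.81 ± 0.35), Il3 (-2.79 ± 0.26), the amino acid stress genes Chac1 (-2.75 ± 0.28) and Trib3 (-2.72 ± 0.23), and Arhgap15 (-2.66 ± 0.10). Chac1, Trib3, Asns and Sesn2 fell while the chaperone genes Sdf2l1, Pdia4, Hsp90b1, Creld2 and Calr of the same list rose, by 0.79 to 1.19.

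Over the whole course of the cocktail, given as means of 3 libraries, the 6 h point lay at different stages for different genes. Il2 peaked at 4 h (600 CPM) and was at 303 CPM at 6 h. Fos peaked at 0.5 h (1440 CPM) and Socs3 at the same time (1270 CPM), and both were below their naive means of 653 and 229 CPM by 6 h. Rgs16 (522 CPM) and Fam83g (126 CPM) had their highest mean at 6 h itself. Maf was at 270 CPM at 6 h and at 771 CPM at 12 h. Il17f reached 30.6 CPM at 12 h and 1200 CPM at 24 h, and Il17a 14.4 CPM at 24 h and 486 CPM at 72 h.

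**Figure D3:**
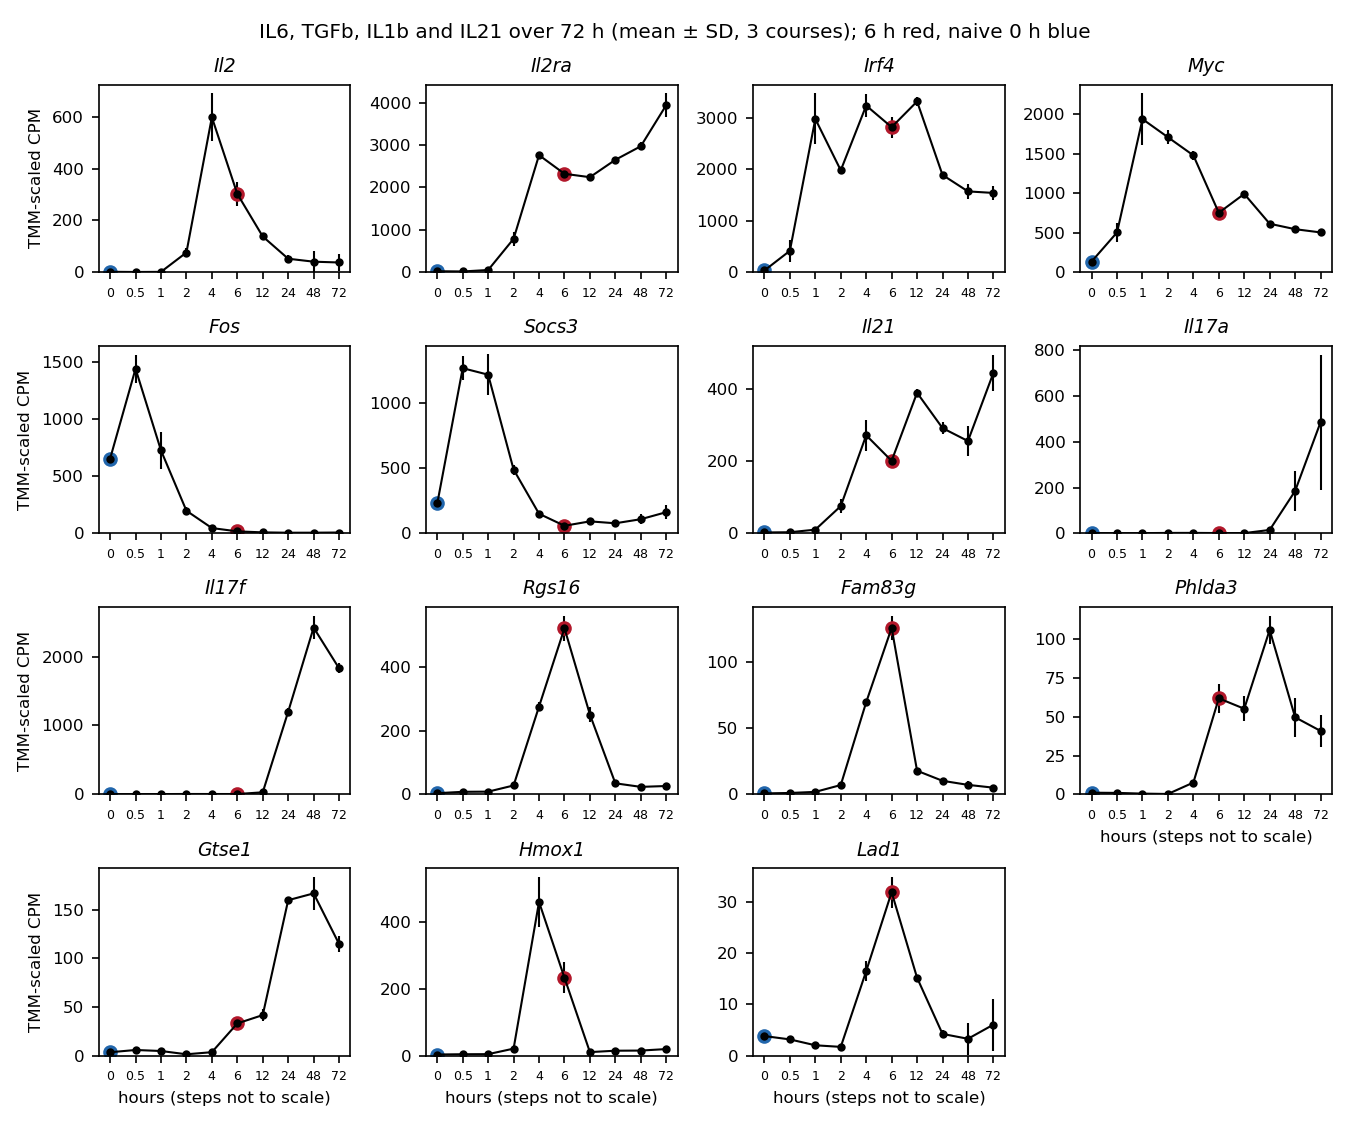
TMM-scaled CPM (mean ± SD, 3 courses) of 15 genes over 0 to 72 h of IL6, TGFb, IL1b and IL21, with hours on an axis of equal steps; the 6 h point is circled in red and the naive 0 h point in blue. Socs3 has its lowest mean at 6 h (57.4 CPM), Rgs16, Fam83g and Lad1 their highest, and Il17a and Il17f reach their higher means from 24 h on.

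Between the 4-cytokine cocktail and the one without IL21, 0 of 14859 genes were called by limma and by edgeR and 1, Phf20l1, by DESeq2; unadjusted p-values under 0.05 were given to 298 genes by limma (2.01%), 286 by edgeR and 279 by DESeq2. The lowest limma adjusted p was 0.0541, for Fcer2a (-1.10), 2 genes differed by more than 1 on the log2 scale, and the median SE was 0.13. Libraries of the same course deviated together in this comparison (correlations of 0.362, 0.412 and 0.364 over genes). With course as a block limma called 3 genes in the fit of all libraries of courses 4 to 6, namely Fcer2a (-1.10, adjusted p = 0.000814), Phf20l1 (-0.33, adjusted p = 0.0189) and Gzma (0.84, adjusted p = 0.0481). With a block and only the libraries of both cocktails, limma called 2, Il21 (0.51, adjusted p = 0.0258) and Egln3 (0.48, adjusted p = 0.0437). Il21 was read at 210, 181 and 211 CPM with IL21 in the medium against 154, 126 and 144 CPM without it, and Egln3 at 78, 81 and 81.2 CPM against 58, 55.7 and 58.1 CPM, so for both the groups did not overlap, as was the case for 9.33% of all genes.

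Against the cocktail without IL1b, too, 0 genes were called by limma, edgeR or DESeq2, and unadjusted p-values under 0.05 went to 140 genes by limma (0.942%), 140 by edgeR and 122 by DESeq2. No gene differed by more than 1 on the log2 scale. Il21 was at 210, 181 and 211 CPM with IL1b against 227, 193 and 207 CPM without it, and Il1r1 at 4.93, 3.15 and 3.31 CPM against 3.99, 2.91 and 2.86 CPM. These values overlapped for each gene. A p-value that misses the threshold does not show that the cocktails act alike.

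The 6 h step of the cocktail was compared with that of stimulation without cytokines, each over its own 0 h, in 1 fit of all libraries of courses 1 to 6. Of 15328 genes 927 (6.05%) differed, 571 more positive with the cocktail (3.73%) and 356 more negative (2.32%); without course 6 the count was 553. Cytokines and course set cannot be told apart in this comparison beyond the subtraction of each 0 h. Of the IL6 list 12 of 16 genes (median difference 1.31) and of the Th17 list 7 of 16 (1.20) were more positive with the cocktail, and 0 of either list more negative. Among 30 ribosome biogenesis, 23 serine and nucleotide and 20 tRNA synthetase genes, limma called 0 at an adjusted p of 0.05; their median differences were -0.17, -0.13 and -0.06, and 14.6% of all genes had an unadjusted p under 0.05. Myc was at 694 to 764 CPM at 6 h with the cocktail, 771 to 830 CPM with IL6 and TGFb and 1170 to 1200 CPM without cytokines (-0.69 ± 0.21, limma adjusted p = 0.0324). In the NF-kB list 1 of 22 differed, Il1r1.

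Il21 had the largest difference. It was read at 175 to 211 CPM with the cocktail at 6 h, 71.8 to 115 CPM with IL6 and TGFb and 1.67 to 4.28 CPM without cytokines, and its step was 6.47 ± 0.50 larger with the cocktail than without cytokines (limma adjusted p = 6.33e-20). Maf was at 219 to 306, 104 to 174 and 3.77 to 8.81 CPM in the same order (5.62 ± 0.38). Ly6a, the Sca-1 antigen, was at 338 to 405, 163 to 193 and 6.47 to 10.8 CPM (5.29 ± 0.25). Stimulation without cytokines left Maf and Ly6a under the naive range of its courses (11.4 to 18.9 and 65.1 to 77.6 CPM). Timp1, an inhibitor of matrix proteases (4.73 ± 0.48), and Cyp11a1, which starts steroid synthesis (4.48 ± 0.54), followed. Rora (3.05 ± 0.29), Il1r1 (2.66 ± 0.39), Ahr (1.75 ± 0.33) and Batf (1.63 ± 0.28) also had a larger step, while Irf4 did not differ by the test (0.22 ± 0.46, limma adjusted p = 0.906), at 2570 to 3000 CPM with the cocktail and 2850 to 3210 CPM without cytokines.

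Some genes that fell or were not called under the cocktail stood lower after stimulation without cytokines. Socs3 was at 49.3 to 62.8 CPM with the cocktail, 32.5 to 52.6 CPM with IL6 and TGFb and 4.14 to 5.94 CPM without cytokines, steps of -2.05, -2.25 and -5.17 and a difference to no cytokines of 3.12 ± 0.56. Stat3 (1.62 ± 0.19), Gimap4 (2.24 ± 0.21), Gbp2 (2.13 ± 0.45) and Gbp5 (1.82 ± 0.42) also had a more positive step with the cocktail. In all, 5 of 8 GIMAP genes and 2 of 20 interferon genes, Gbp2 and Gbp5, were more positive with the cocktail. Among TGFb genes 5 of 20 were more positive, with Pmepa1 at 234 to 277 CPM with the cocktail and 35.8 to 36.3 CPM without cytokines (2.65 ± 0.30). In the glycolysis and hypoxia list 10 of 22 were more positive and 1, Slc2a3, more negative, led by Egln3 (77 to 81.1 CPM against 5.01 to 6.11; 4.29 ± 0.37). Tbx21 was also among the genes with a larger step (32.1 to 38.2 CPM against 1.1 to 3.04; 3.87 ± 0.74), as were Cxcr5 (3.50 ± 0.46) and Tox2 (3.37 ± 0.32).

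In the other direction, Cd226, an activating receptor of T and NK cells, was at 0.423 to 0.659 CPM with the cocktail, 2.29 to 3.09 CPM with IL6 and TGFb and 24.7 to 35.9 CPM without cytokines (-4.60 ± 0.55). Tnnt2, a troponin gene otherwise known from heart muscle, was at 5.28 to 8.06, 21.5 to 36.3 and 119 to 145 CPM (-4.29 ± 0.29), and Lad1, a basement membrane filament protein, at 29.2 to 34.1, 125 to 160 and 536 to 694 CPM (-3.92 ± 0.74). The order of these levels was the same in all 3, lowest with the cocktail and highest without cytokines. The levels, unlike the differences in brackets, are not taken over each set's own 0 h. Fam129a (-2.99 ± 0.33) and Stap1 (-2.97 ± 0.22) completed the 5 largest of the ranking.

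**Figure D4:**
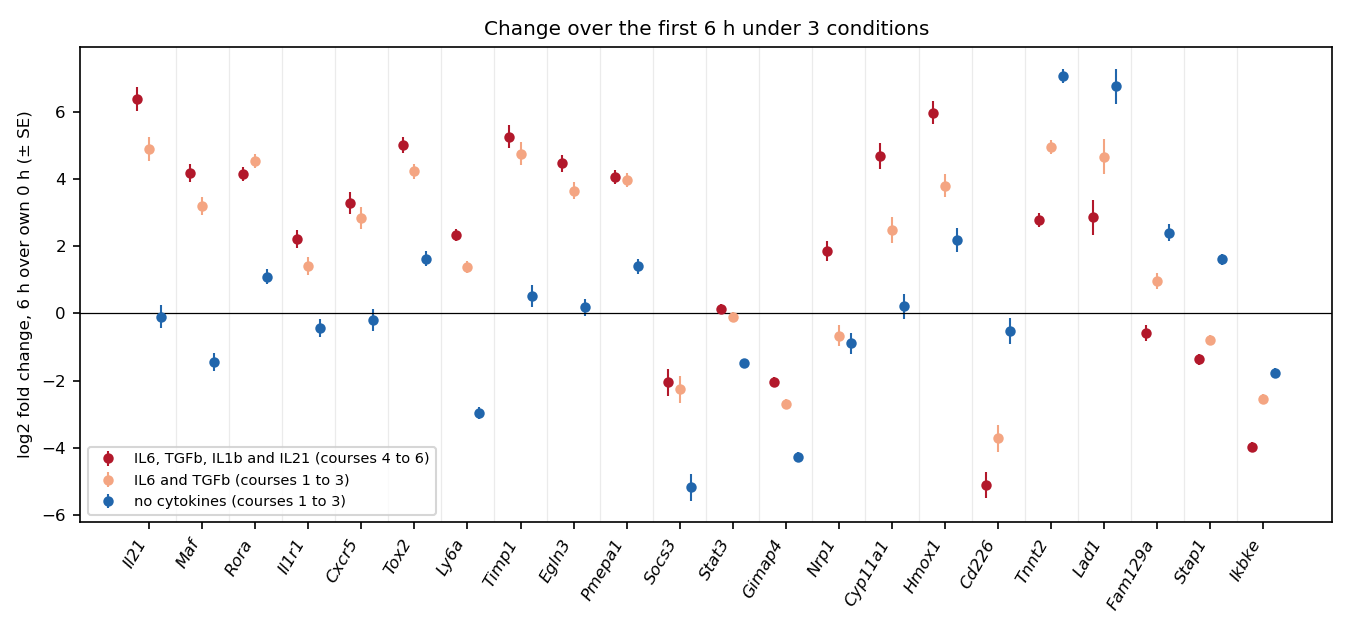
Log2 fold change ± SE (limma, all libraries of courses 1 to 6) of the 6 h step over each set's own 0 h for 22 genes, with IL6, TGFb, IL1b and IL21 (red), IL6 and TGFb (orange) and no cytokines (blue). Il21, Maf, Ly6a and Socs3 lie higher with cytokines than without, and Tnnt2, Lad1 and Fam129a lowest with the 4-cytokine cocktail.

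Set against IL6 and TGFb alone, the step of the cocktail differed for 58 of 15328 genes (0.378%), 41 more positive (0.267%) and 17 more negative (0.111%), and 6.66% had an unadjusted p under 0.05. The count was 8 without course 6, 24 without course 2 and 36 without course 5. Of all the lists, 1 gene was called, Nrp1, a co-receptor for semaphorins and a Treg marker, at 15.2 to 21.7 CPM with the cocktail and 2.74 to 6.67 CPM with IL6 and TGFb (2.52 ± 0.44). Hmox1, the stress enzyme that breaks down heme, was at 201 to 276 CPM against 28.5 to 78.9 CPM (2.16 ± 0.49), and Cyp11a1 at 18.3 to 22 CPM against 3.59 to 5.89 CPM (2.21 ± 0.54). Tmem35 (1.24 ± 0.30) was also among the genes with a larger step. Among genes that passed the same filter on the cocktail at 6 h and its naive cells, the largest negative step differences were those of Tnnt2 (-2.16 ± 0.29), Fam129a (-1.54 ± 0.33) and Phldb1 (-1.44 ± 0.27). Ikbke, an IKK-related kinase of the interferon response (29.7 to 34.1 CPM against 80.6 to 87.4, -1.42 ± 0.21), and Cd72 (-1.10 ± 0.26) followed. Tnnt2 and Ikbke kept their call under every alternative run, and Tmem35 lost it under 8, Cyp11a1 and Hmox1 under 7 each, Cd72 under 4, Fam129a under 2, and Nrp1 and Phldb1 under 1 each. By edgeR the limma calls of Cyp11a1 (edgeR adjusted p = 0.642), Hmox1 (0.171) and Tmem35 (0.153) did not pass, and by DESeq2 those of Cyp11a1 (DESeq2 adjusted p = 0.104) and Hmox1 (0.0686) did not. Il21 (1.49 ± 0.50, limma adjusted p = 0.263) and Maf (0.99 ± 0.38, limma adjusted p = 0.476) were not called here.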

How the data were processed

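RNA was sequenced from the 47 groups of 3 libraries; the 6 libraries described here and 5 further sets of libraries were compared. The deposited table holds CPM values made by the authors: each library's column adds up to one shared total, and whole reads (100% of values, tolerance 0.001) were recovered by dividing each column by what 1 read was worth. Per the submitters' processing notes, HTSeq, TopHat and the mm9 and GRCh37 builds were involved; no source used here gives their versions, their roles or the strand of counting. The table had 46517 genes, and all 37 mitochondrial genes had 0 reads, so mitochondrial reads could not serve as a sign of RNA quality.

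Genes with at least 1 CPM in 3 or more libraries were tested with limma-trend (limma 3.58.1, R 4.3.3) on log2 of TMM-scaled CPM (edgeR 4.0.16) plus 0.5, with Benjamini-Hochberg adjustment over all genes tested. The 4 comparisons within courses 4 to 6 used all their 28 groups (56 residual degrees of freedom), and the step differences used all groups (94). edgeR's quasi-likelihood test and DESeq2 1.42.0 on the recovered reads, no TMM scaling, a pseudocount of 0.1, no filter, a course block, only the libraries compared and leaving out each course were the alternatives, and leaving out the naive library of course 6 was added after seeing the data. The fits were tested on simulated data with 50 changed genes of each size. For the cocktail against naive cells 72% of changes of 0.5 on the log2 scale were recovered. For the step differences it was 28% (no cytokines) and 14% (IL6 and TGFb), and 88% and 84% of changes of 1. Small step differences could thus be missed. Floors of 3 reads and intervals of read ratios cover counting error only. Libraries of the same course deviated together in all 3 courses only for the cocktails with and without IL21, so only there were the course numbers read as pairing the samples. The labels do not give which mice or cultures are shared, so these correlations cannot settle whether the other comparisons are paired.

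The members and gene lists were chosen with earlier results of these data known. Genes are named by a rule: the 12 largest changes in each direction with at least 5 CPM and no overlap, the 3 largest of each list, all Th17 genes, and 5 in each direction for the other comparisons. For the step differences the filter on CPM and overlap used only the cocktail at 6 h and its naive cells. The other genes named, such as Socs3, Isg15, Gbp5, Foxp3, Tgfbr1 and Myc in the comparison without cytokines, were chosen after their values were seen. Promoters are the 250 bases before each start in RefSeq (GRCm38.p6), matched by symbol. Some genes of the lists are counted but not reported by name here.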

Additional observations from a re-analysis of the deposited data

Results flagged for a closer look

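Differences between the 6 h step of the cocktail and the 6 h step of another condition were tested directly. Listed here are 4 or 5 of the largest in each direction as log2 differences from limma, each past an adjusted p of 0.05. They were ranked among genes that passed the filter on the cocktail at 6 h and its naive cells. Against stimulation without cytokines, the step was more positive with the cocktail for Il21 (6.47), Maf (5.62), Ly6a (5.29), Timp1 (4.73) and Cyp11a1 (4.48). It was more negative for Cd226 (-4.60), Tnnt2 (-4.29), Lad1 (-3.92), Fam129a (-2.99) and Stap1 (-2.97). Against IL6 and TGFb without IL1b and IL21, it was more positive for Nrp1 (2.52), Cyp11a1 (2.21), Hmox1 (2.16) and Tmem35 (1.24), and more negative for Tnnt2 (-2.16), Fam129a (-1.54), Phldb1 (-1.44), Ikbke (-1.42) and Cd72 (-1.10). Cyp11a1, Tnnt2 and Fam129a are in both sets. Against IL6 and TGFb, Cyp11a1, Hmox1 and Tmem35 lost their call under 7, 7 and 8 alternatives. The conditions come from different sets of courses, so the cytokines and the course set cannot be told apart beyond the subtraction of each set's 0 h.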

How the results depend on the processing

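The count of genes called between the cocktail at 6 h and naive cells stayed between 10330 and 12883 under the alternatives run, against 11188. For the cocktail with and without IL21 (0 genes), 2 genes were called without TMM scaling, 14 without a filter, 3 with the replicate block in the fit of all libraries, 2 with the replicate block and only the libraries compared, 1 by DESeq2, and 0 to 1 with a course left out. For the cocktail with and without IL1b (0 genes), 1 was called with a pseudocount of 0.1 (Hist1h4d) and 11 without a filter. Against 4 h the count was 3599 to 4653 with a course left out. For the step against no cytokines (927) it was 1492 with only the libraries compared and 553 to 1004 with a course left out. For the step against IL6 and TGFb (58) it was 261 with only the libraries compared, 179 with the replicate block and only the libraries compared, and 8 to 71 with a course left out. Of the genes named by the rule, Il17a (1.43 to 1.68) and Il17f (2.05 to 2.25) were called against naive cells without course 6 or its naive library. Il17a was also called with a pseudocount of 0.1, and Il24 by DESeq2 (-3.54), while Il10 (0.80) and Cd8a (-0.41) lost their call without course 4. Genes named outside the rule were not all followed in this way. Among them the calls of Gimap5, Ccr7 and Qars also changed, as given above. The counts of lower genes in the interferon and Treg lists changed too, as given there. Against IL6 and TGFb 7 of the 9 genes named lost their call under at least 1 alternative: Tmem35, Cyp11a1, Hmox1, Cd72, Fam129a, Nrp1 and Phldb1. Among genes named by the rule, none that was called in the main fit or in an alternative changed sign there. Signs of genes called in neither fit were not compared. The cause of the changed counts and calls was not tested. Besides the genes called between the cocktails with and without IL21 (Fcer2a, Phf20l1, Gzma, Il21 and Egln3), the replicate block in the fit of all libraries changed no call of a gene named by the rule. Tmem35 against IL6 and TGFb (1.24) lost its call with only the libraries compared, with and without the block. Libraries of the same course correlated at 0.185, -0.37 and -0.342 between the cocktail at 6 h and naive cells, so there the course numbers were not read as pairing. The depth of 21.3 to 29.5 M reads leaves genes under 1 CPM, such as Il22, Il23r and Il17a, resting on few reads.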
